A study of Homo sapiens with 9 samples.

Results

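Aldehyde dehydrogenases are enzymes that oxidise aldehydes to carboxylic acids with NAD+ or NADP+. In lung and airway epithelium they are known for clearing aldehydes from ethanol, lipid peroxidation and smoke, for making retinoic acid from retinaldehyde, and for the aldehyde dehydrogenase activity that is often used to sort tumour cells. The 10 genes described here were listed with earlier results of these data known, and were found by symbol in the deposited expression table of 24069 rows. Each of them had a row of its own: ALDH1A1, ALDH1A3, ALDH1B1, ALDH2, ALDH3A1, ALDH3A2, ALDH3B1, ALDH3B2, ALDH7A1 and ALDH9A1.

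RNA came from 9 libraries of LC-2/ad and its derivatives PR1 and PR2. LC-2/ad is a lung adenocarcinoma cell line of human origin that carries a CCDC6-RET fusion. The parental group had 3 libraries with no drug stated. PR1 and PR2 had 3 libraries each, and both were resistant to ponatinib, a multi-kinase inhibitor that acts on RET among other kinases, and were grown in it at 200 nM. Resistance and the presence of the drug cannot be told apart in any comparison with the parental cells, and each derivative stands for a single named line. The libraries of a group carry the letters A, B and C, and the labels do not say whether these are separate cultures, so a p-value here reflects spread among libraries that may be technical.

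Values are FPKM, fragments scaled by transcript length and by the mapped fragments of the library. They keep no absolute depth, and relative depths estimated from the steps between low values ran from 0.759 to 1, with parental A as 1. Log2(FPKM + 1) correlated across genes at 0.961 to 0.985 within groups and 0.883 to 0.949 between groups. The 12 lung epithelial markers were EPCAM, CDH1, KRT7, KRT8, KRT18, KRT19, NKX2-1, NAPSA, SFTPB, SLC34A2, CEACAM5 and CEACAM6. All passed the filter on low values, at a summed 6234 to 9264 FPKM, with KRT7, KRT8 and KRT19 the highest. SFTPB, at 0.020 to 0.035 FPKM in PR2, passed through the other groups. Summed levels were 10.3 to 17.8 FPKM for 10 fibroblast markers, 1.003 to 10.6 for 10 blood and endothelial markers, and 0.693 to 13.8 for 8 neuroendocrine markers, of which 2 were at 0 in all libraries. In RNA from bulk cultures, fewer cells with a transcript and less transcript per cell cannot be told apart.

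Promoter sequences of 7 of the 10 genes were found in the RefSeq table (GRCh38.p14), with 9 start sites. ALDH2, ALDH3A1 and ALDH3B2 had no entry there. The 250 bases upstream of the start are printed for the pair of enzymes that act on retinaldehyde, ALDH1A1 (chr9:72953054-72953303, minus strand) and ALDH1A3 (chr15:100879581-100879830, plus strand), and for 2 genes that were higher in a derivative, ALDH1B1 (chr9:38392452-38392701, plus strand) and ALDH3B1 (chr11:68008297-68008546, plus strand, the first of 2 starts). Sequences read 5′ to 3′ on the gene's strand, and capitals mark CCAAT and GGGCGG on either strand (as ATTGG and CCGCCC on the other).
ALDH1A1: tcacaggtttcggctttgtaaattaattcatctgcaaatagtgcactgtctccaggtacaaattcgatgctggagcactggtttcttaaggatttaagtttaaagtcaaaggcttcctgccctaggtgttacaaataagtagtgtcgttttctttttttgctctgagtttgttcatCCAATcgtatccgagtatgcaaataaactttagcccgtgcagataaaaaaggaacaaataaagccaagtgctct
ALDH1A3: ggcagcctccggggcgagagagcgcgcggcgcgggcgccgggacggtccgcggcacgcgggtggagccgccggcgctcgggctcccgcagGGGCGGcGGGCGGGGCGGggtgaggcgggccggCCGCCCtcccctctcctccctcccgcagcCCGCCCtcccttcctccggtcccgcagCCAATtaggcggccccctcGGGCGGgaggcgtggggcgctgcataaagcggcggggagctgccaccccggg
ALDH1B1: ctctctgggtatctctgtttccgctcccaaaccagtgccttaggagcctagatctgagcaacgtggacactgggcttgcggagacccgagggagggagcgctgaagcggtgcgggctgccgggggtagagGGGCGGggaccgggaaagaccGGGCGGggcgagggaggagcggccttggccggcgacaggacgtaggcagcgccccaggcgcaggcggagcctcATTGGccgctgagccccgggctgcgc
ALDH3B1: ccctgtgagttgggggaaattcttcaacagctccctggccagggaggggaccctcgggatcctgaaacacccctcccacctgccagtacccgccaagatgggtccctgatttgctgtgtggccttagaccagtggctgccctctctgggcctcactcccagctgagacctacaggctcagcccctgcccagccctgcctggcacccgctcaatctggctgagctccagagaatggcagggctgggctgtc
The ALDH1A1 window was 38.4% G and C with 6 CpG pairs and held 1 CCAAT, at position -74 counted from the start, and no GGGCGG. The ALDH1A3 window was 82.4% G and C with 38 CpG pairs, and held 6 GGGCGG matches, some overlapping, and 1 CCAAT. The median over the 34943 promoter windows of the table was 58% G and C and 11 CpG pairs. The ALDH1B1 window held 2 GGGCGG and 1 CCAAT, and the printed ALDH3B1 window held neither. The window of the second ALDH3B1 start, not printed, held 2 GGGCGG, at -83 and -44, and no CCAAT. Over the 9 windows of the family, CCAAT was found in 5, against 32% of all windows, and GGGCGG in 6, against 42.5%. TATAAA (10.8% of all windows), TGANTCA (6.59%) and TGACNNNGC (10.9%), searched on both strands, were in none of the 9, and GCGTG (32.2%) was in 2. A match or its absence describes these letters in these windows only.

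In the parental cells the family was led by ALDH1A3, in PR1 by ALDH2, and in PR2 by ALDH1B1 and ALDH3B1. ALDH1A3 averaged 49.1 ± 22.2 FPKM in the parental cells (SD, n = 3), followed by ALDH9A1 (24.0 ± 2.23), ALDH1B1 (21.8 ± 2.32) and ALDH7A1 (21.1 ± 5.24), whose values overlapped one another. In PR1 the order was ALDH2 (85.0 ± 16.5 FPKM), ALDH3B1 (41.5 ± 6.96) and ALDH9A1 (35.5 ± 4.53), and every PR1 library had more ALDH2 than any other member. In PR2 ALDH1B1 (46.5 ± 6.30 FPKM), ALDH3B1 (45.7 ± 18.1) and ALDH1A3 (38.5 ± 15.5) overlapped in their values. ALDH1A1 was the lowest member in all 3 groups. The summed level of the 10 genes was 154 to 198 FPKM in the parental libraries, 263 to 279 in PR1 and 204 to 265 in PR2. ALDH2 made up 5.07% to 12.6% of that sum in parental cells, 24.0% to 37.6% in PR1 and 8.23% to 10.5% in PR2.

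**Figure D1:**
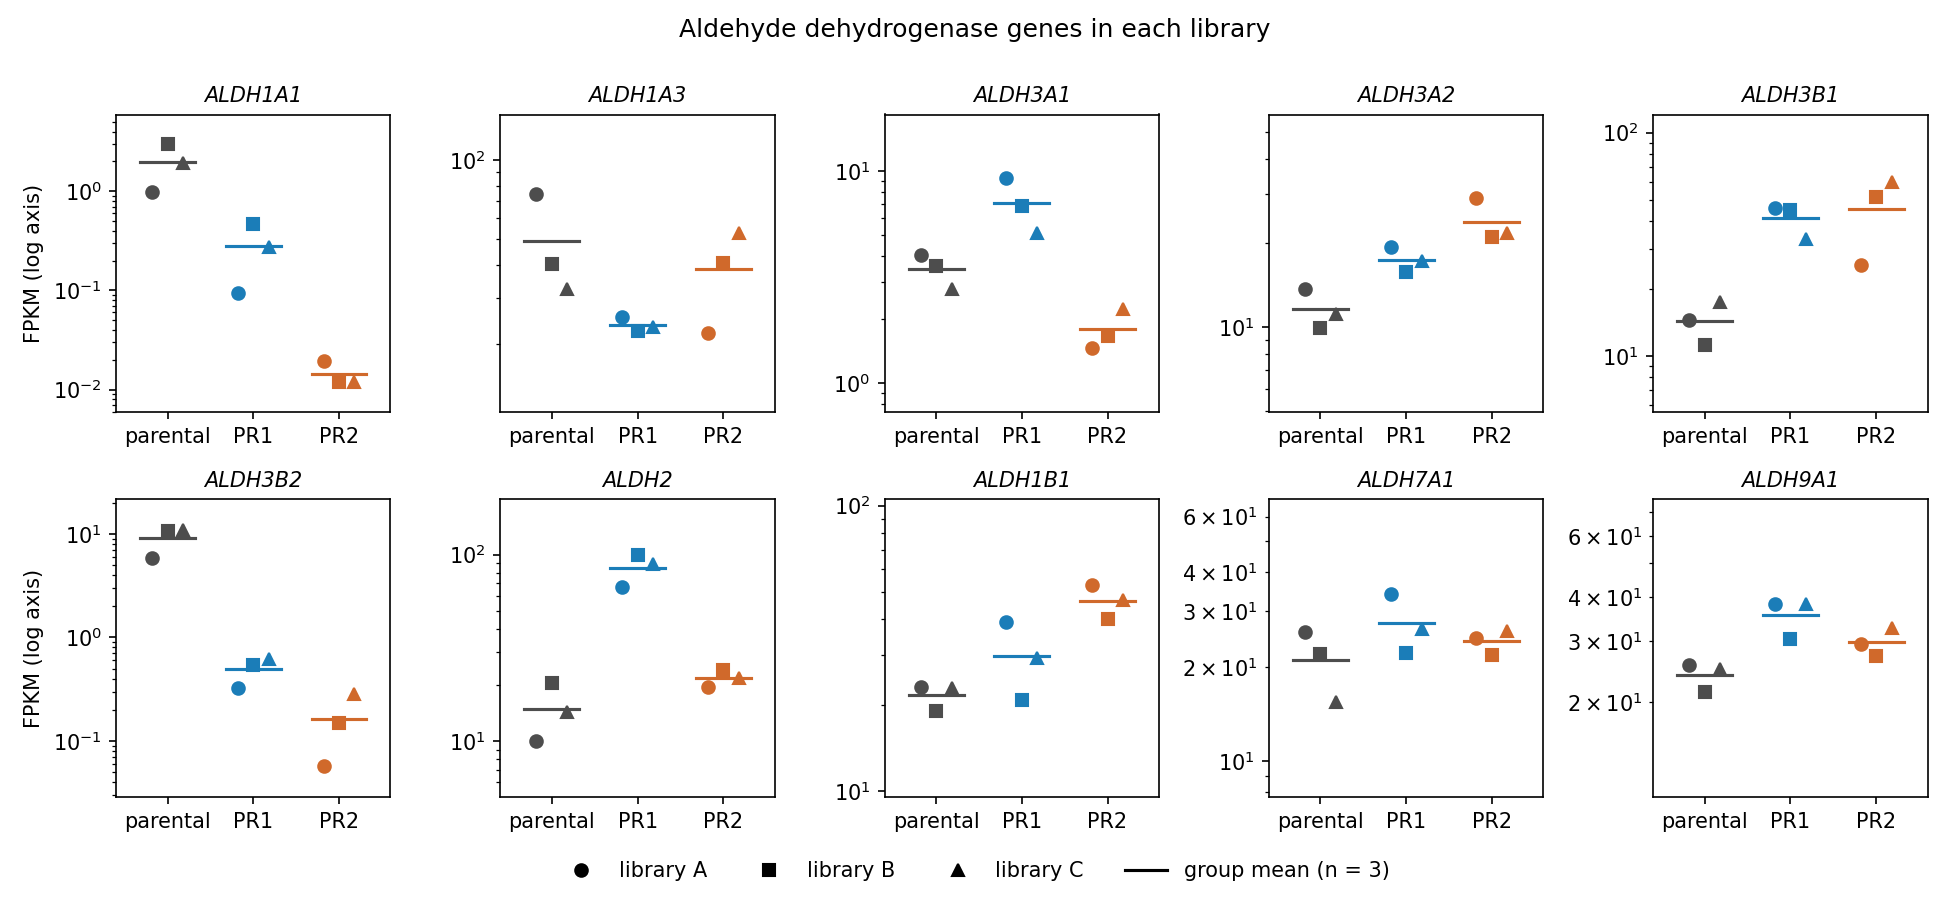
Level of each of the 10 genes (FPKM, log axis with its own range in each panel) in the 3 libraries of each group; symbols mark the library letter and lines the group mean. ALDH3B2 and ALDH1A1 are lower in every PR1 and PR2 library than in any parental library, and ALDH2 stands at 66.8 to 98.9 FPKM in PR1 against at most 24.0 elsewhere.

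**Figure D2:**
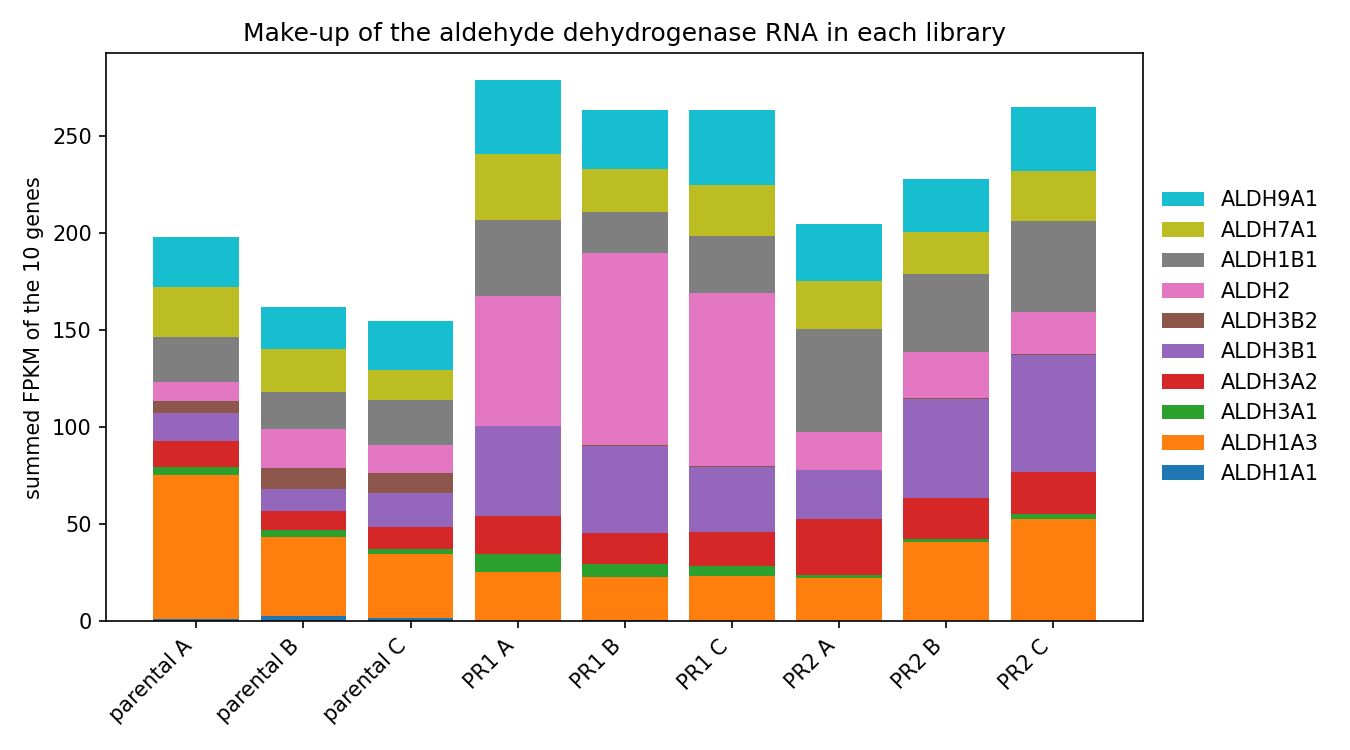
Summed FPKM of the 10 genes in each library (bars start at 0), split by gene. The ALDH2 segment is widest in the 3 PR1 libraries, and the ALDH3B2 segment is visible only in the 3 parental libraries.

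Groups were compared with limma on log2(FPKM + 1), with 1 mean per group over all 9 libraries and Benjamini-Hochberg adjustment over the 12011 rows that reached 1 FPKM in at least 3 libraries. A change was called at an adjusted p under 0.05, and errors of log2 differences are standard errors. Of the 10 genes, 9 passed this filter and ALDH1A1 did not. ALDH3B2 passed it through the 3 parental libraries alone, and the falls counted below include it in both derivatives. In PR1 against parental cells 5 of the 9 changed, against 15.5% of all tested rows: 4 rose (7.56% of rows rose) and 1 fell (7.98%). In PR2 against parental cells 5 changed, against 23.4% of rows, of which 3 rose (13.6%) and 2 fell (9.83%). In PR2 against PR1 2 were lower, against 19.9% of rows differing and 8.92% lower. None was higher in PR2 by limma, against 11.0% of rows, with 2 (ALDH1B1 and ALDH3A2) higher at an unadjusted p under 0.05. The comparisons with parental cells share the 3 parental libraries. Because the members were chosen with earlier results known, these shares and the medians below are no test of the family. The median log2 difference of the 9 tested members was 0.54 in PR1, 0.30 in PR2 and -0.16 between PR2 and PR1, and the median of all tested rows was 0.05, 0.03 and 0.0038 in turn.

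**Figure D3:**
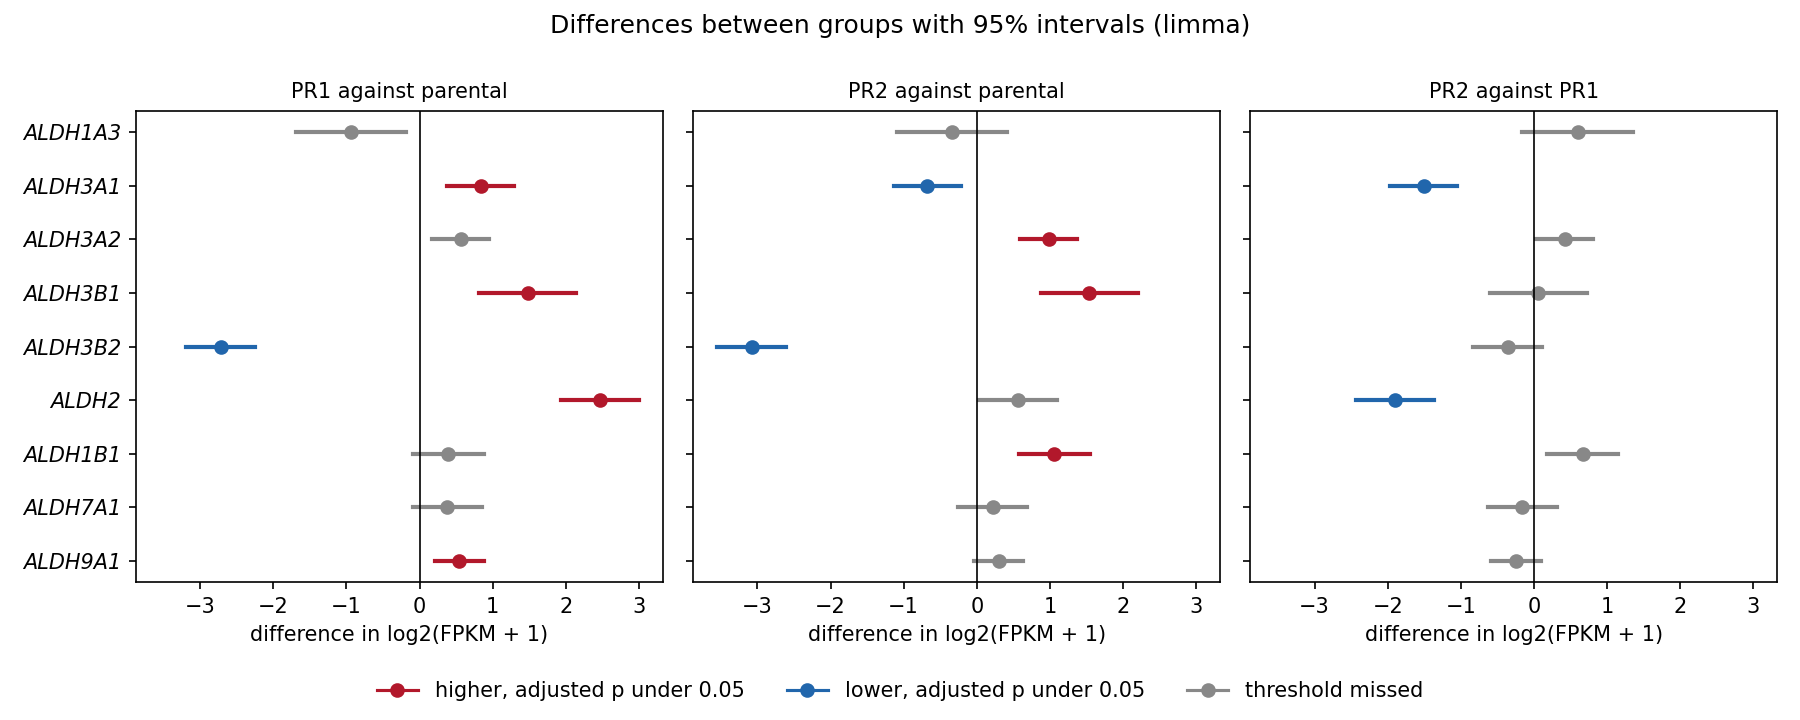
Difference in log2(FPKM + 1) of the 9 tested genes in the 3 comparisons (points, limma estimate; bars, 95% interval; colour, whether the adjusted p was under 0.05). ALDH2 is higher in PR1 and lower in PR2 than in PR1, ALDH3B1 and ALDH3B2 lie on opposite sides of 0 against the parental cells, and ALDH3A1 is higher in PR1 and lower in PR2.

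ALDH2, the mitochondrial enzyme best known for oxidising acetaldehyde from ethanol, had the largest rise of the family in PR1. It stood at 10.03, 20.4 and 14.4 FPKM in parental A, B and C, at 66.8, 98.9 and 89.4 in PR1, and at 19.6, 24.0 and 21.8 in PR2. All PR1 libraries lay above all others, and the PR2 range overlapped the parental range. PR1 exceeded the parental cells by a log2 of 2.47 ± 0.24 (limma adjusted p = 0.00017), a 5.70-fold ratio of means. PR2 minus PR1 was -1.90 ± 0.24 (limma adjusted p = 0.00059). Both differences passed under all 18 alternatives tried. In PR2 against parental cells the difference of 0.56 (95% interval 0.03 to 1.1, unadjusted) missed the threshold after adjustment (limma adjusted p = 0.12), which it passed without parental B (0.80, limma adjusted p = 0.041). The nearest tested coding genes on its sides, ACAD10 and MAPKAPK5, had log2 differences of 0.05 each in PR1 (limma adjusted p = 0.89 and 0.88). An overlapping gene annotation, AC002996.1, shares 6.6% of the 50-base stretches of ALDH2 transcripts, so a part of its reads could belong to either.

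ALDH1B1, a second mitochondrial enzyme close in sequence to ALDH2, followed another course. Its values were 23.2, 19.1 and 23.1 FPKM in the parental libraries, 39.0, 20.8 and 29.2 in PR1 and 52.6, 40.0 and 46.8 in PR2. PR2 lay above both other groups in every library, while PR1 overlapped the parental cells. It rose in PR2 by a log2 of 1.06 ± 0.22 (limma adjusted p = 0.0065). In PR1 the difference was 0.39 (95% interval -0.09 to 0.88, limma adjusted p = 0.27). Between PR2 and PR1 the 0.67 ± 0.22 missed the threshold (limma adjusted p = 0.057) and passed with the letter as a replicate block (limma adjusted p = 0.0089) and without PR1 A (0.88, limma adjusted p = 0.017).

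The 4 class 3 members sit in pairs, ALDH3A1 with ALDH3A2 on chromosome 17 and ALDH3B1 with ALDH3B2 on chromosome 11, with 1 coding gene between the members of each pair. In PR2 one member of each pair rose and the other fell. ALDH3B1 and ALDH3B2 encode closely related enzymes that act on fatty and aromatic aldehydes. ALDH3B2 was at 5.81, 10.7 and 10.8 FPKM in parental cells, at 0.327, 0.537 and 0.614 in PR1 and at 0.058, 0.149 and 0.283 in PR2. No derivative library reached a parental value, and the PR2 values were also below those of PR1. ALDH3B2 reached 1 FPKM only in the parental libraries, so its entry into the test depended on the group where it was high. The log2 fall was -2.72 ± 0.21 in PR1 (limma adjusted p = 4.0e-05) and -3.08 ± 0.21 in PR2 (limma adjusted p = 1.1e-05), with means 18.5-fold and 55.9-fold lower. Between the derivatives, where every value was under 1 FPKM, the difference of -0.36 missed the threshold (limma adjusted p = 0.27). It passed at a pseudocount of 0.1 (-1.23, limma adjusted p = 0.049).

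ALDH3B1 went up where its neighbour went down. Parental A, B and C held 14.4, 11.2 and 17.5 FPKM, against 46.2, 44.9 and 33.5 in PR1 and 25.4, 51.3 and 60.3 in PR2. All derivative libraries were above the parental ones, with PR2 A the lowest of the derivatives. On the log2 scale PR1 gained 1.48 ± 0.30 (limma adjusted p = 0.0089) and PR2 gained 1.54 ± 0.30 (limma adjusted p = 0.0047), and each call held under all 18 alternatives. PR2 and PR1 differed by 0.06 (95% interval -0.60 to 0.72, limma adjusted p = 0.92), a sign that turned without PR1 C, PR2 B or PR2 C. The ratio of ALDH3B1 to ALDH3B2 was 1.04 to 2.49 in the parental libraries, 54.6 to 141 in PR1 and 213 to 441 in PR2. UNC93B1, the one coding gene between them, was called in no comparison, with log2 differences of 0.37 for PR1 and -0.18 for PR2 (limma adjusted p = 0.23 and 0.55). Of the 50-base stretches of ALDH3B2 transcripts 1.28% also occur in ALDH3B1, and 0.993% of those of ALDH3B1 occur in ALDH3B2.

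ALDH3A1, a cytosolic enzyme of aromatic and medium-chain aldehydes that is abundant in cornea and induced by smoke constituents in airway cells, was the member with opposite calls in the derivatives. It stood at 4.01, 3.59 and 2.78 FPKM in parental cells, 9.24, 6.85 and 5.13 in PR1 and 1.46, 1.67 and 2.25 in PR2, so the 3 groups did not overlap. The difference between PR2 and PR1 was -1.51 ± 0.21 (limma adjusted p = 0.00091) and was called under all 18 alternatives. Against the parental cells it rose in PR1 by a log2 of 0.83 ± 0.21 (limma adjusted p = 0.023), and its PR2 difference was -0.68 ± 0.21 (limma adjusted p = 0.039). The rise in PR1 was lost without parental B, parental C, PR1 A or PR1 B (limma adjusted p of 0.059 to 0.082). The fall in PR2 was lost under 10 of 18 alternatives, among them without parental A, parental B, PR1 B, any PR2 library or the 3 A libraries (limma adjusted p of up to 0.11).

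ALDH3A2, the fatty aldehyde dehydrogenase of the endoplasmic reticulum whose loss causes Sjögren-Larsson syndrome, was lowest in the parental cells and highest in PR2. It was at 13.7, 9.90 and 11.1 FPKM in parental cells, 19.4, 15.8 and 17.2 in PR1 and 29.01, 21.1 and 21.7 in PR2, and no group overlapped another. In PR2 it rose by a log2 of 0.98 ± 0.18 (limma adjusted p = 0.0029). The difference in PR1 was 0.56 ± 0.18 and that between PR2 and PR1 0.42 ± 0.18. Both missed the threshold (limma adjusted p = 0.056 and 0.12) and passed with the letter as a replicate block (limma adjusted p = 0.0075 and 0.021), and the PR1 difference also passed after quantile normalization and without parental A, PR2 A or the 3 A libraries (limma adjusted p = 0.047, 0.037, 0.039 and 0.031). Groups did not overlap in 31.6% of all tested rows in PR1 against parental cells, 39.9% in PR2 against parental cells and 38.7% in PR2 against PR1.

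ALDH1A1 and ALDH1A3 are cytosolic enzymes that turn retinaldehyde into retinoic acid, and ALDH1A1 is the isoform most often linked to the aldehyde dehydrogenase activity of stem-like tumour cells. ALDH1A1 was low throughout. It was at 0.985, 2.98 and 1.94 FPKM in parental cells, 0.094, 0.466 and 0.276 in PR1 and 0.019, 0.012 and 0.012 in PR2, and no group overlapped another. With no filter, where it could be tested, the log2(FPKM + 1) difference from parental cells was -1.17 for PR1 (limma adjusted p = 0.015) and -1.49 for PR2 (limma adjusted p = 0.0036), a scale that compresses values this low. Between PR2 and PR1 it was -0.32 on that scale (limma adjusted p = 0.42).

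ALDH1A3 was at 74.4, 40.4 and 32.5 FPKM in parental cells, 25.5, 22.4 and 23.2 in PR1 and 22.1, 40.6 and 52.8 in PR2. The PR1 libraries lay below the parental ones and close together, while parental A was high and PR2 A low within their groups. No comparison passed the threshold, with log2 differences of -0.94 ± 0.34 in PR1 (limma adjusted p = 0.093), -0.34 ± 0.34 in PR2 (0.52) and 0.60 ± 0.34 between the derivatives (limma adjusted p = 0.25). Within letters, PR2 minus parental was -1.70 for A, 0.01 for B and 0.68 for C. Without the 3 A libraries ALDH1A3 was lower in PR1 than in parental cells (-0.65, limma adjusted p = 0.048) and higher in PR2 than in PR1 (0.99, limma adjusted p = 0.011), and the PR2 difference to parental cells was 0.35 (limma adjusted p = 0.21). The PR1 difference also passed without PR2 A (limma adjusted p = 0.041).

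ALDH9A1, which makes gamma-aminobutyric acid from its aldehyde and acts in carnitine synthesis, was at 25.6, 21.5 and 25.0 FPKM in parental cells, 38.2, 30.3 and 38.2 in PR1 and 29.4, 27.1 and 32.7 in PR2. It rose in PR1 by 0.54 ± 0.15 (limma adjusted p = 0.038), a call lost under 10 of 18 alternatives, including each of parental A, B and C, PR1 A, PR1 C, PR2 B and PR2 C left out and the 3 A libraries left out (limma adjusted p of up to 0.12). In PR2 its difference was 0.30 (95% interval -0.04 to 0.64, limma adjusted p = 0.19). ALDH7A1, the lysine-degrading enzyme antiquitin, was at 25.8, 21.9 and 15.4 FPKM in parental cells, 34.1, 22.1 and 26.4 in PR1 and 24.7, 21.9 and 26.0 in PR2. Its groups overlapped, with differences of 0.38 in PR1 (95% interval -0.09 to 0.85) and 0.22 in PR2 (95% interval -0.26 to 0.69) at limma adjusted p of 0.27 and 0.51. A pseudogene, ALDH7A1P1, shares 5.49% of the 50-base stretches of its transcripts. ALDH9A1, ALDH1A1, ALDH1A3, ALDH3A1, ALDH3A2 and ALDH3B1 overlap annotated genes or pseudogenes on the other strand, by whole gene spans with introns included. Overlap of exons was not examined. As no strand setting of the counting is known, reads from any shared exon bases could belong to either gene.

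Within each letter, all 10 members had the same direction in A, B and C for PR1 against parental cells, and 8 of 10 did for each of the other comparisons. The PR1 count includes ALDH7A1, whose difference in letter B was only 0.01. How often all tested rows kept 1 direction over the letters was not computed, so these counts have no background to be read against. With the letter as a replicate block 3088 rows changed in PR1 against 1866 without it, and 3789 against 2395 differed between PR2 and PR1.

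Pearson correlations over the 9 libraries describe which genes shared a pattern, and since libraries of a group share a line they carry no test. ALDH1A1 and ALDH3B2 were most alike within the family (r = 0.96), followed by ALDH1B1 and ALDH3A2 (r = 0.92), and ALDH1A1 and ALDH3A2 were most opposed (r = -0.93). Among other tested genes, ENTPD3, BPIFB1 and CST2 were most like ALDH3B2 (r = 0.99 each). TSC2 and RPH3AL were among those most like ALDH2 (r = 0.99 and 0.97). LIMK1, FAM167A and ANPEP were most like ALDH3B1 (r = 0.99, 0.97 and 0.96). TSC2 was at 20.2 to 21.7 FPKM in parental cells, 29.4 to 33.2 in PR1 and 22.0 to 24.1 in PR2, a smaller range than that of ALDH2.

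Other aldehyde dehydrogenase genes were examined as a list of 9, of which 6 passed the filter and ALDH1A2, ALDH1L2 and ALDH8A1 stayed at or under 0.457 FPKM. In PR1 1 of the 6 fell and none rose by limma (1 at an unadjusted p under 0.05, and 1 with the replicate block, without the 3 A libraries or without PR1 A). In PR2 2 rose and 2 fell, and leaving out single libraries gave 1 to 2 of each. The falls numbered 1 with each library rescaled to an equal sum. PR2 exceeded PR1 for 1 of the 6 and none was lower by limma (1 at an unadjusted p under 0.05, and 2 with the replicate block). Of all tested rows, 15.5% changed in PR1, 23.4% in PR2 and 19.9% between the derivatives. The median log2 difference of the 6 genes was 0.13 in PR1, 0.04 in PR2 and 0.09 between PR2 and PR1. ALDH1L1, the 10-formyltetrahydrofolate dehydrogenase of folate metabolism, fell from 7.95, 14.5 and 12.2 FPKM to 0.274, 0.209 and 0.180 in PR1 and 2.04, 3.15 and 3.18 in PR2. Its log2 differences were -3.33 ± 0.21 and -1.71 ± 0.21 (limma adjusted p = 9.1e-06 and 0.00036), and PR2 was higher than PR1 by 1.62 (limma adjusted p = 0.00068). ALDH4A1, which acts in proline breakdown, rose in PR2 by 0.68 ± 0.16 (limma adjusted p = 0.012). ALDH5A1, which oxidises succinic semialdehyde, rose there by 0.64 and ALDH18A1, which acts in proline synthesis, fell by 0.57 on the log2 scale (limma adjusted p = 0.014 and 0.036). The ALDH5A1 call was lost without PR2 B or PR2 C (limma adjusted p = 0.054 and 0.067), and the ALDH18A1 call under 6 alternatives, among them the rescaling and the omission of parental A, parental C, PR1 C, PR2 B or PR2 C (adjusted p from limma up to 0.13).

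The alcohol and retinol dehydrogenases interconvert alcohols and aldehydes, and only some of those listed supply aldehydes to the family. Of 18 listed genes, 2 lie in combined rows and 9 others were tested. In PR1 2 of these fell and none rose by limma (0 at an unadjusted p under 0.05, and 1 without PR2 A, without the 3 A libraries or with only the compared groups in the fit), in PR2 5 fell and 1 rose, and 3 were lower and none higher by limma in PR2 than in PR1 (0 at an unadjusted p under 0.05). With the replicate block 3 fell in PR1 and 4 were lower in PR2 than in PR1. Over all tested rows the changed shares in the main fit were 15.5% in PR1, 23.4% in PR2 and 19.9% between PR2 and PR1. RDH10, which makes retinaldehyde from retinol, fell from 76.8, 63.8 and 69.3 FPKM to 15.9, 32.7 and 36.5 in PR1 and 5.63, 6.04 and 7.13 in PR2, by log2 differences of -1.35 ± 0.27 and -3.29 ± 0.27 (limma adjusted p = 0.0079 and 2.9e-05). DHRS9, another retinol dehydrogenase, held 125.6, 186.7 and 107.8 FPKM in the parental libraries, 4.21, 9.71 and 13.5 in PR1 and 0.695, 13.5 and 19.9 in PR2. Its log2 differences were -3.88 for PR1 and -4.10 for PR2 (limma adjusted p = 0.0089 and 0.0044). ADH1C, a class I alcohol dehydrogenase, was at 22.5 ± 3.71 FPKM in parental cells, 37.1 ± 6.09 in PR1 and 3.73 ± 2.82 in PR2, and it was lower in PR2 than in PR1 by 3.27 on the log2 scale (-3.27 ± 0.47, limma adjusted p = 0.0012). ADH5, the formaldehyde-clearing member, rose in PR2 by 0.51 (limma adjusted p = 0.046), a call lost without any one of parental B, parental C, PR1 C or the PR2 libraries and with the filter at 5 FPKM (limma adjusted p of up to 0.16).

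Genes that carry retinoids or respond to retinoic acid formed a list of 20, of which 12 were tested. In PR1 6 fell and none rose by limma (0 at an unadjusted p under 0.05), and in PR2 4 fell and none rose by limma (1 at an unadjusted p under 0.05, 1 with the replicate block, after quantile normalization or rescaled to equal sums, and 2 without the 3 A libraries). In PR2 against PR1 3 were higher and 2 lower. The shares of all tested rows that changed were 15.5%, 23.4% and 19.9% in turn. The list's median log2 difference was -0.49 in PR1 and -0.42 in PR2. STRA6, the receptor for retinol uptake, was at 8.28, 19.3 and 21.8 FPKM in parental cells, 0.884, 2.40 and 1.39 in PR1 and 0.096, 1.02 and 0.582 in PR2 (limma log2 differences -2.71 and -3.42, adjusted p = 0.0010 and 0.00013). RARB, a retinoic acid receptor gene that is itself induced by retinoic acid, was at 2.31 ± 0.24 FPKM in parental cells, 1.03 ± 0.30 in PR1 and 0.256 ± 0.16 in PR2 (SD, n = 3; limma log2 differences -0.71 and -1.40, adjusted p = 0.013 and 0.00019). The RARB call in PR1 was lost without parental B and at a pseudocount of 0.1 (limma adjusted p of up to 0.084). FABP5, which can carry retinoic acid, went the other way between the derivatives, at 36.3 ± 10.1 FPKM in parental cells, 3.36 ± 2.87 in PR1 and 51.2 ± 25.9 in PR2 (PR2 minus PR1 3.66 ± 0.44, limma adjusted p = 0.00047). RXRA, a partner of the retinoic acid receptors, was lower in PR2 than in PR1 (-0.77 ± 0.14, limma adjusted p = 0.0048).

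**Figure D4:**
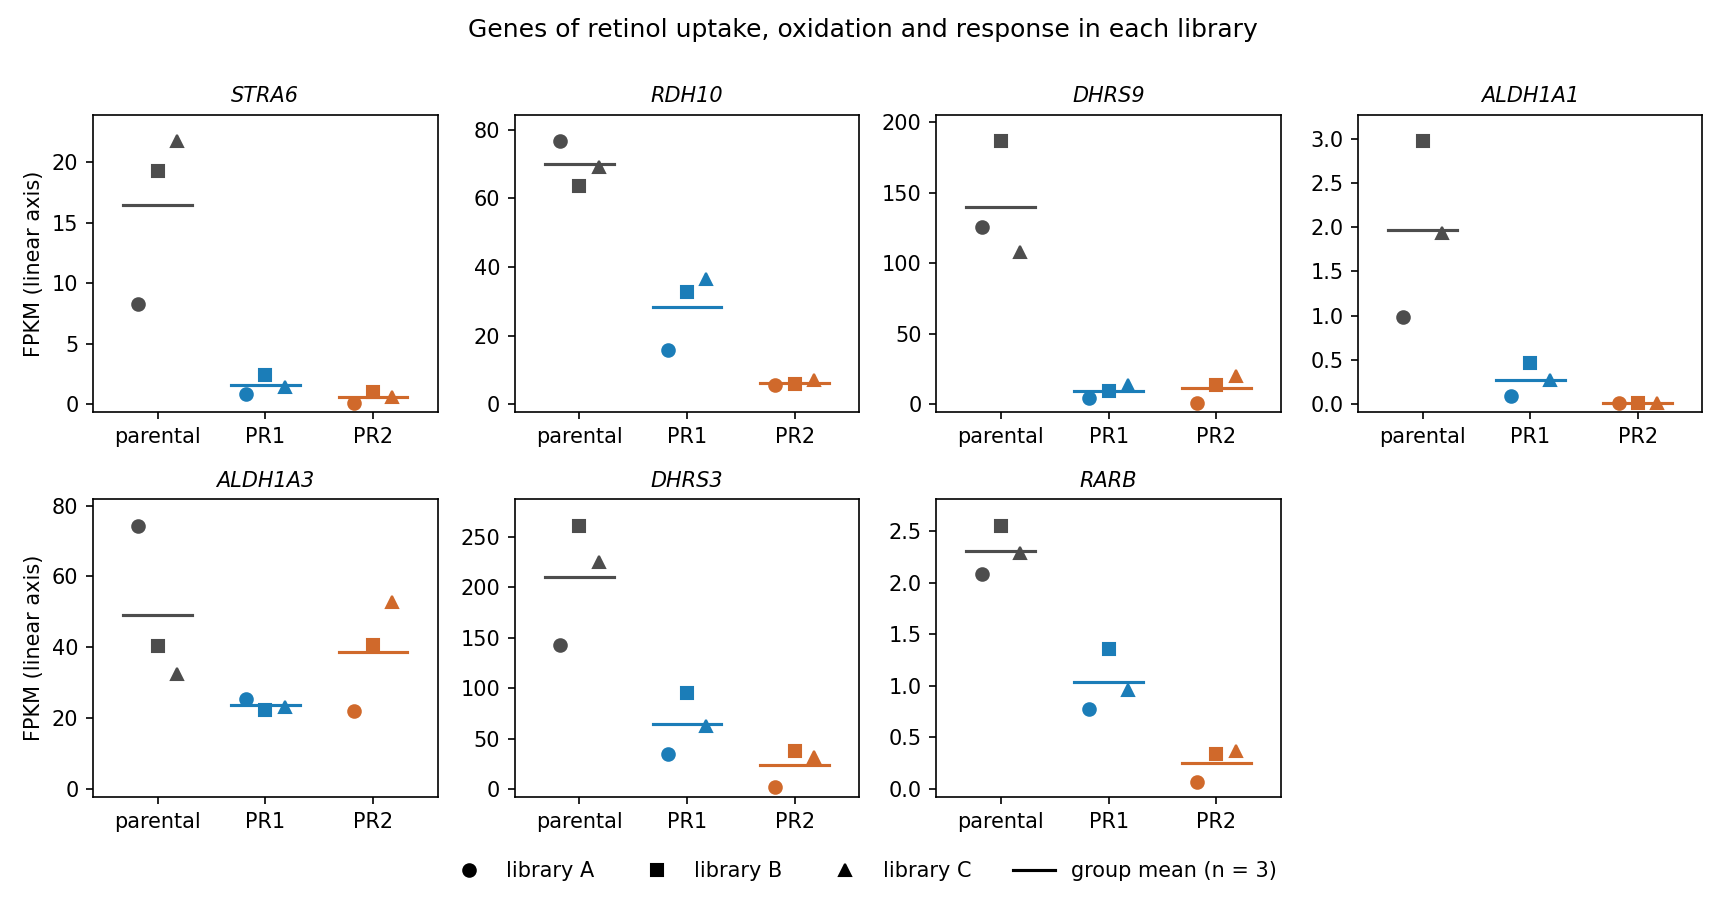
Level (FPKM, linear axis with its own range in each panel) of 7 genes of retinol uptake (STRA6), retinol and retinaldehyde interconversion (RDH10, DHRS9, DHRS3), retinaldehyde oxidation (ALDH1A1, ALDH1A3) and retinoic acid response (RARB) in each library; lines are group means. All but ALDH1A3 are lower in every PR1 and PR2 library than in any parental library. Over all tested rows, groups did not overlap in 31.6% for PR1 and 39.9% for PR2 against parental cells. STRA6, RDH10, DHRS3 and RARB were chosen after their values were seen, and DHRS3 in PR1 missed the threshold (limma adjusted p = 0.18). CRABP2, RARG, RDH11, CYP26B1 and TGM2 of the same lists, not shown, were called in no comparison.

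Aldehydes are also removed by reduction and by conjugation. Of 16 tested genes of reductases, glutathione transferases and related enzymes, 1 rose and 3 fell in PR1, 2 rose and 4 fell in PR2, and 2 were higher and 2 lower in PR2 than in PR1. Among all tested rows 15.5%, 23.4% and 19.9% changed in these comparisons. Leaving out single libraries gave 0 to 1 rises in PR1, 2 to 5 falls in PR2, and 1 to 3 higher and 0 to 2 lower genes between the derivatives. GSTA1, a glutathione transferase, fell from 1.35, 9.94 and 4.08 FPKM to 0.021, 0.614 and 0.086 in PR1 and to 0, 0.026 and 0.053 in PR2 (limma log2 differences -2.06 and -2.31, adjusted p = 0.011 and 0.0042). GSTA1 reached 1 FPKM only in the parental libraries, so its entry into the test depended on the group where it was high. It has close paralogs among which reads may be split. AKR1B10, an aldo-keto reductase that reduces retinaldehyde back to retinol, was lower in PR2 than in PR1 by a log2 of 1.13 (-1.13 ± 0.26, limma adjusted p = 0.013), a call lost without PR2 B (limma adjusted p = 0.052).

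In the NRF2 and aryl hydrocarbon receptor routes the share of genes that changed against parental cells was near that of all rows. Of 19 tested genes of these routes, which induce ALDH3A1 and other detoxifying genes, 3 fell in PR1, where 15.5% of all rows changed, and none rose by limma (0 at an unadjusted p under 0.05). Over single omissions the number of falls ran from 0, without parental B, to 4. In PR2, where 23.4% of all rows changed, 4 fell and 1 rose, the falls numbering 2 when rescaled and 2 to 4 over single omissions. GPX2 led the falls with -1.19 for PR1 and -1.72 for PR2 (limma adjusted p = 0.021 and 0.0022), and the PR1 call was lost without parental A, parental B, PR1 A, PR1 C or the 3 A libraries (limma adjusted p of up to 0.096). HMOX1, the heme oxygenase gene, rose in PR2 by 0.95 ± 0.16 and was higher there than in PR1 by 1.17 (limma adjusted p = 0.0024 and 0.0011). It was the 1 gene of the list that differed between PR2 and PR1 (2 with the replicate block), against 19.9% of all tested rows.

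A list of routes around the family's substrates held 16 tested genes of polyamine, choline, lysine, fatty aldehyde and related metabolism. Not all of them make an aldehyde. Of the 16, 2 rose and 4 fell in PR1, against 15.5% of all tested rows changed. In PR2 1 rose and 3 fell, a share near the 23.4% of all rows. In PR2 against PR1 2 were higher and 5 lower, against 19.9% of all rows. The higher genes in PR1 numbered 1, and the lower genes between PR2 and PR1 2, with each library rescaled to an equal sum. Single omissions gave 0 to 2 rises and 2 to 4 falls in PR1 and 1 to 5 lower genes between the derivatives. SAT1, which acetylates polyamines, averaged 308 ± 57.2 FPKM in parental cells, 109 ± 15.9 in PR1 and 91.7 ± 44.5 in PR2 (SD, n = 3; limma log2 differences -1.48 and -1.84, adjusted p = 0.012 and 0.0025), and the PR1 call was lost without parental B (limma adjusted p = 0.051). CYP4F11, a fatty acid hydroxylase, was lower in PR1 than in parental cells by 1.02 (-1.02 ± 0.21) and higher in PR2 than in PR1 by 1.1 on the log2 scale (limma adjusted p = 0.0086 and 0.0050). TMLHE, which acts in carnitine synthesis, rose in PR1 by 0.44 (limma adjusted p = 0.046), a call lost under 13 of 18 alternatives, the omission of any single library but parental C included. SMOX, the spermine oxidase gene, was lower in PR2 than in PR1 (-0.94 ± 0.29, limma adjusted p = 0.043), a call lost under 8 of 18 alternatives, among them without parental B, PR1 A, PR1 C or any PR2 library (limma adjusted p of up to 0.13).

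The nearest tested coding genes on either side of the 10 members numbered 17 besides the members themselves. None of them changed in PR1 by limma (4 at an unadjusted p under 0.05), against 15.5% of all tested rows. In PR2 3 of the 17 rose and 1 fell, a share near the 23.4% of all rows. Between PR2 and PR1 3 were higher and 2 lower, against 19.9% of all rows. The difference between members and neighbours was not tested. SHB, beside ALDH1B1, fell in PR2 by 1.51 on the log2 scale (-1.51 ± 0.20, limma adjusted p = 0.00062), the opposite direction to ALDH1B1. LRRK1, beside ALDH1A3, rose in PR2 by 0.94 (limma adjusted p = 0.00078), and MGST3, beside ALDH9A1, by 1.04 (limma adjusted p = 0.013).

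Markers of cell identity moved too, and their part in the differences above was not tested. Of the 12 lung epithelial markers 2 rose and 2 fell in PR1, against 15.5% of all tested rows changed. In PR2 1 rose and 5 fell, against 23.4% of rows, and 1 was higher and 6 lower in PR2 than in PR1, against 19.9%. SFTPB, a surfactant protein gene, was at 40.6 to 144 FPKM in parental cells, 3.46 to 6.01 in PR1 and 0.020 to 0.035 in PR2 (limma log2 differences -3.60 and -6.08, adjusted p = 0.00027 and 6.6e-06). NAPSA rose in PR1 (1.85, limma adjusted p = 0.0094). KRT7 was higher in PR2 than in parental cells (1.14, limma adjusted p = 0.0056) and than in PR1 (1.07, limma adjusted p = 0.0096), and CEACAM5 was lower in PR2 than in PR1 (-4.54, limma adjusted p = 2.3e-05). CD14 fell in both derivatives (limma log2 differences -1.55 and -1.86, adjusted p = 0.0033 and 0.00071), and UCHL1 was lower in PR1 and higher in PR2 than in parental cells (limma log2 differences -1.13 and 1.66, adjusted p = 0.017 and 0.0014), with PR2 above PR1 by 2.78 (limma adjusted p = 0.00011).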

How the data were processed

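RNA of 9 libraries in 3 groups was analysed. By the labels' protocols it was column-purified and sequenced from TruSeq libraries. Tools in the submitters' processing notes are TopHat2 2.0.14, Cufflinks 2.2.1 and Cuffdiff 2.2.1, with GRCh37 and hg19 as builds. For the annotation, strand setting and read numbers, nothing was given in these sources. The values deposited by the authors are taken as FPKM, an inference, since the header names no unit and Cufflinks reports FPKM. Of 24069 rows, 704 combine several genes and 5378 are 0 in every library.

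Rows reaching 1 FPKM in 3 or more libraries (12011) were tested as log2(FPKM + 1) in R 4.3.3 with limma 3.58.1, two-sided, with an intensity trend. The fit was tested on simulated data. The fit had no replicate block, and the letter entered only in an alternative. Deviations of same-letter libraries from their group means correlated at 0.31, 0.48 and 0.16 (A, B and C) for PR1 and parental cells. For PR2 and PR1 these were 0.53, 0.54 and 0.25, and for PR2 and parental cells 0.30, 0.42 and 0.014. Libraries of different letters were not set beside them, so these values do not decide whether the letters pair libraries. Any such pairing is ignored by the main fit. Alternatives were a pseudocount of 0.1, filters, scalings, other fits, the replicate block, each library left out and the 3 A libraries left out.

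Members and lists were chosen with earlier results of these data known. Named genes were all members, the largest called rise and fall of each list and comparison with a group mean of at least 5 FPKM, and the 3 genes most like each of 3 members. RDH10, STRA6, RARB, DHRS3, ALDH5A1, ALDH18A1 and the neighbouring genes named were chosen after their values were seen. A few genes that the rule names are not reported here. Genes in combined rows were left out of list counts. Sequence sharing and neighbours came from GENCODE 29 (GRCh38).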

Additional observations from a re-analysis of the deposited data

Results flagged for a closer look

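The effects of PR1 and PR2 against the shared parental libraries differed for 2 of the 9 tested members, by the test of PR2 against PR1 itself. That share is near the 19.9% of all tested rows that differed there, and groups did not overlap in 38.7% of rows. ALDH2 differed by -1.90 on the log2(FPKM + 1) scale (95% interval -2.44 to -1.37) and was lower in every PR2 library than in any PR1 library. ALDH3A1 differed by -1.51 (95% interval -1.97 to -1.05), with the same separation. Groups of 3 libraries are too small for a test of single outlying libraries.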

How the results depend on the processing

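Over 18 alternatives (1 for ALDH1A1), 440 member results kept their direction and side of the threshold, 24 lost a call, 19 gained one and 6 turned direction. Those 6 were uncalled: ALDH1A3 in PR2 against parental cells (0.0012 without parental A, 0.0072 without PR2 A, 0.35 without the 3 A libraries, and -0.60 to 0.0072 over single libraries left out) and ALDH3B1 in PR2 against PR1 (-0.08 without PR1 C, -0.07 without PR2 B, -0.18 without PR2 C, and -0.18 to 0.43 over single libraries left out). In PR1 against parental cells 2 members fell with no filter and without the 3 A libraries. In PR2 against parental cells 1 fell at 5 FPKM, rescaled, and without the 3 A libraries. In PR2 against PR1 1 was higher after quantile normalization and rescaled, and 2 with the replicate block and without the 3 A libraries. Leaving out single libraries gave 2 to 5 rises and 1 to 2 falls in PR1, 3 to 4 and 1 to 2 in PR2, and 0 to 1 higher and 2 to 2 lower between them. The rises in PR1 numbered 2 without parental B, parental C or PR1 A, through ALDH3A1 and ALDH9A1, and the falls in PR2 1 without parental A, parental B, PR1 B or any PR2 library, through ALDH3A1. All changed rows then numbered 1141 to 2027, 1805 to 2922 and 1420 to 2446. At 5 FPKM they numbered 1207, 1811 and 1573 against 1866, 2814 and 2395, and with the replicate block 3088, 4113 and 3789. Libraries without which counts of all rows fell by over 1.5 times were parental B and PR1 C (1166 and 1141) in PR1, parental B and PR2 C (1870 and 1805) in PR2, and PR1 B, PR2 B and PR2 C (1592, 1464 and 1420) in PR2 against PR1. With the replicate block ALDH2 also passed in PR2 against parental cells (limma adjusted p = 0.017), where same-letter correlations were 0.30, 0.42 and 0.014. The block changed no other member's call beyond those given above. Rescaling libraries to equal sums moved the median of all rows in PR2 to 0.18 and the split of higher to lower rows from 1633 and 1181 to 1991 and 808, and in PR2 against PR1 from 1324 and 1071 to 1493 and 765. The cause of these shifts was not tested. Depth limits ALDH1A1 in PR2, at 0.012 to 0.019 FPKM.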
